A study of Mus musculus with 6 samples.

Results

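The fatty acid binding proteins are a family of small cytosolic carriers, and 7 of its genes (Fabp1 to Fabp7) were taken by name from a table of 49548 mouse genes. The family was chosen by its measured levels and group differences in these same 6 libraries, with the results already known, so the differences of the members between groups are given as a description, without a test. The libraries came from colon tumors of C57/BL6 mice of the genotype Col6a1-cre, Rosa26-mTmG, 8 to 10 weeks old when they received azoxymethane (AOM), a colon carcinogen, followed by 3 cycles of 2.5% dextran sodium sulfate (DSS) in the drinking water, each followed by 14 days of regular water. Cells that were negative for CD45, EpCAM, CD31 and Ter119 were sorted into GFP+ cells (Col6a1+ cancer-associated fibroblasts, CAFs) and Tomato+ cells (Col6a1- CAFs), with 3 libraries of each. In the reporter, Cre from the Col6a1 promoter switches a cell and its progeny from Tomato to GFP, so the color records whether the promoter was ever active, not the current level of Col6a1. Each sample was a pool of tumors from 5 to 6 mice, and all mice carried the same alleles and received AOM/DSS. In the paper, cells of both colors were sorted from adenomas of these mice, so the groups are not described as separate sets of mice. Poly(A) RNA was sequenced from its 3′ end. The values are normalized read counts, scaled between libraries by the authors, and they are listed below in the order of replicates 1, 2 and 3. In such bulk libraries, fewer cells of a type and less RNA per cell cannot be told apart.

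Fatty acid binding proteins hold long-chain fatty acids, and in some members bile acids or retinoids, in a barrel-shaped pocket and carry them through the cytosol to membranes, to enzymes and to nuclear receptors of the PPAR family. The members are named after the tissue in which each is abundant. Fabp1 (liver type), Fabp2 (intestinal type) and Fabp6 (ileal type, a bile acid carrier) are the members of the gut epithelium. Fabp3 is the form of heart and skeletal muscle, Fabp4 that of adipocytes, macrophages and capillary endothelium, Fabp5 that of epidermis and many other cells, and Fabp7 that of developing brain and glia. Each of the 7 genes has a protein-coding transcript of 4 exons, the gene structure of the family, with lengths of 479 (Fabp6) to 987 bases (Fabp5).

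The libraries held sums of 3039152 to 3425249 normalized counts. Between 18770 and 20511 genes had at least 1 count in 5 of them, and 14530 in Col6a1+ replicate 1. The fibroblast label was checked on 9 marker genes, whose summed level was 44055 to 48420 in Col6a1+ CAFs and 8766 to 16035 in Col6a1- CAFs. The summed level of 12 epithelial markers was 5877 to 6604 and 20420 to 33210, although the sort removed EpCAM+ cells. Epcam itself stood at 1074, 884 and 615 in Col6a1+ CAFs and at 3107, 4129 and 3730 in Col6a1- CAFs.

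The family fell into 3 sets by level. Fabp7 and Fabp5 were high in every Col6a1+ library and at or near 0 in the Col6a1- libraries. Fabp4 was present in all 6 libraries, and its groups overlapped. Fabp1 had no count in any library, and Fabp2, Fabp3 and Fabp6 stayed at 8 counts or fewer. A limma model was fitted across the 26402 genes with at least 1 count in sum, and 6 of the 7 members entered it. There, 2 of these 6 (Fabp5 and Fabp7) lay past an adjusted p of 0.05 as higher in Col6a1+ CAFs, where 2.66% of all genes did, and 0 lay past it as lower, where 1.96% did (4.62% in either direction). Since the family was put forward with this contrast known, nothing is read from that count. A fit that also held the replicate number (the replicate block) left no gene of the 26402 past the threshold, and the members' count was 0 (smallest adjusted p over all genes 0.0612). With that block and only the genes of a mean of at least 10 counts, 2 members lay past it as higher, where 7.26% of 13515 genes did, and 0 as lower, where 6.44% did. It was also 0 without Col6a1- replicate 1 and 2 without any other single library. The median log2 difference was 0.06 over the 6 members and -0.27 over all genes in the fit.

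**Figure D1:**
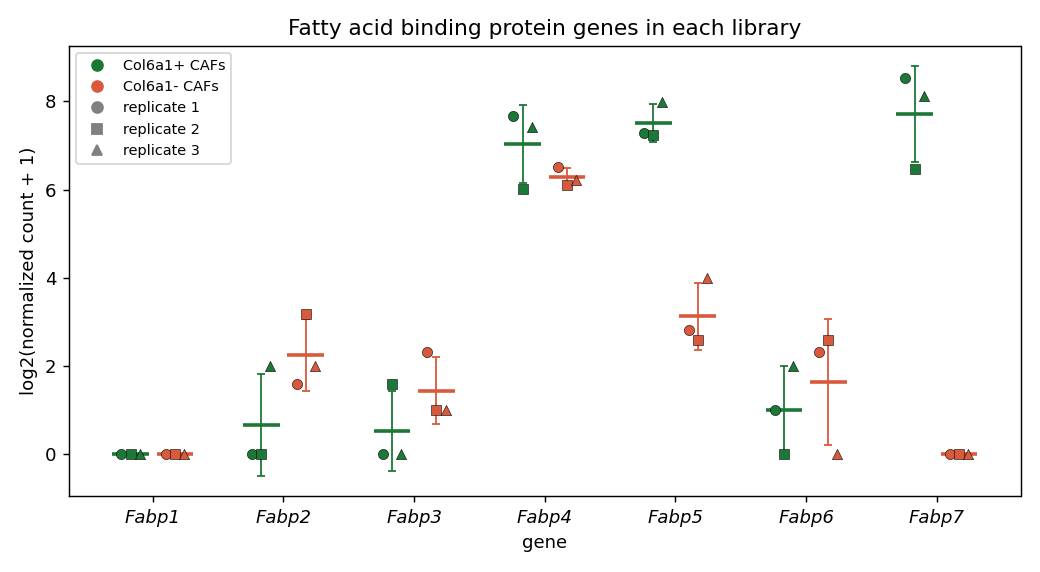
Normalized counts of the 7 Fabp genes in each library, on an axis of log2(normalized count + 1); each point is 1 library of Col6a1+ or Col6a1- CAFs with its shape giving the replicate, and lines and bars are the mean ± SD of the group on that scale (n = 3). Fabp5 and Fabp7 are apart between the groups, Fabp4 overlaps (64 to 203 against 68 to 90), and the other 4 genes lie at 0 to 8 counts.

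Fabp7 encodes the brain-type protein, which prefers polyunsaturated fatty acids such as docosahexaenoic acid and is a marker of radial glia. The gene lies on the plus strand of chromosome 10 (mm10, chr10:57784881-57788450; ENSMUSG00000019874). Its normalized counts were 367, 88 and 278 in Col6a1+ CAFs and 0, 0 and 0 in Col6a1- CAFs. Replicate 2 was the lowest Col6a1+ library, and the groups did not overlap; over all genes in the fit, 7.91% were without overlap and higher in Col6a1+ CAFs. The mean was 244 ± 143 (SD, n = 3) in Col6a1+ CAFs. Against a floor of 3 counts in each Col6a1- library, the Col6a1+ mean was at least 81.4-fold higher. The fitted difference on the log2(count + 1) scale was 7.71 ± 0.83 (SE), in size the first of the 26402 genes among those higher in Col6a1+ CAFs. With a group at 0, that value depends on the added count of 1, and it moved to 11.02 with an added count of 0.1.

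Few genes had this pattern of absence. In 71 genes (0.269% of those in the fit), every Col6a1- library was at 0 and every Col6a1+ library had at least 1 count. In 9 genes (0.0341%), every Col6a1+ library had at least 10, and Fabp7 had the highest mean of these. The other 8, listed after their values were seen, were Higd1b, H2-M9, Tmem178, Sema5b, Nmur1, Gcgr, Ndst3 and Acan. Higd1b, a known marker gene of pericytes, stood at 33, 140 and 144 in the Col6a1+ libraries. Acan, the cartilage proteoglycan aggrecan, stood at 11, 16 and 15. Within the Col6a1+ group, the order of the libraries thus differed between genes, and replicate 2, the lowest for Fabp7, was not the lowest for Higd1b.

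**Figure D2:**
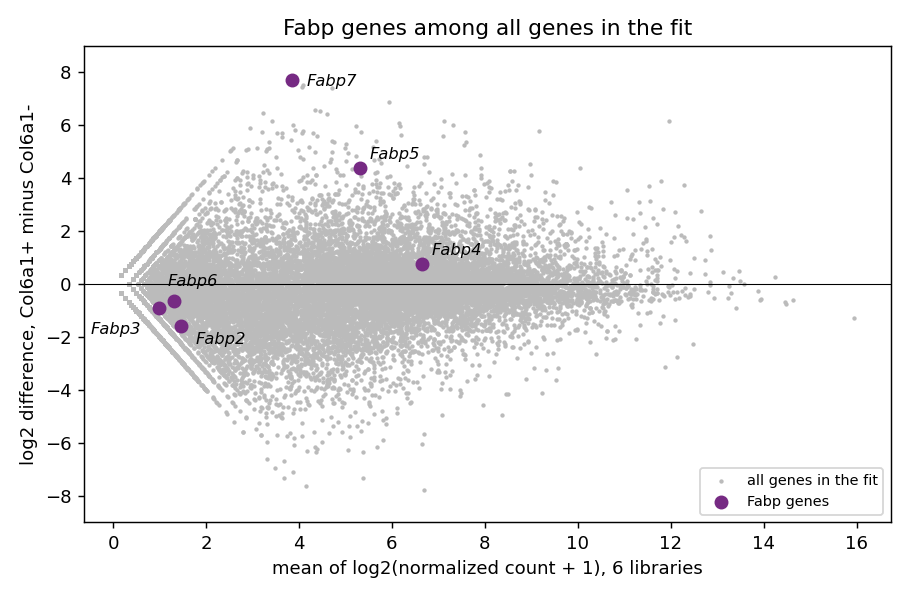
Difference between the groups (log2, Col6a1+ minus Col6a1-) against the mean log2(normalized count + 1) over the 6 libraries for all 26402 genes in the fit, with the 6 Fabp genes that entered it marked. Fabp7 (7.71) is at the upper edge, Fabp5 (4.38) is within the upper cloud, and Fabp4 (0.75) is above 0. Fabp2 (-1.58), Fabp3 (-0.91) and Fabp6 (-0.64) are at low levels and below 0.

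A pair of promoters is shown because these belong to the member with the largest difference and to the member with no count. RefSeq promoters (GRCm38.p6, the build of the table) were matched for 5 of the 7 members, Fabp1, Fabp2, Fabp3, Fabp6 and Fabp7. Each window spans 250 bases before to 50 bases after the RefSeq start on the plus strand, at chr10:57784673-57784972 for Fabp7 and chr6:71199629-71199928 for Fabp1. Capitals mark matches, on either strand, to 3 motifs chosen after the values were seen. The TATA box was searched as the letters TATAAA. The core bound by RBPJ, the DNA-binding mediator of Notch signals, was searched as TGGGAA. The half-site of nuclear receptors, to which the PPARs belong, was searched as AGGTCA. No matches overlapped in these windows, and a match on the minus strand is printed as its reverse complement.
Fabp7: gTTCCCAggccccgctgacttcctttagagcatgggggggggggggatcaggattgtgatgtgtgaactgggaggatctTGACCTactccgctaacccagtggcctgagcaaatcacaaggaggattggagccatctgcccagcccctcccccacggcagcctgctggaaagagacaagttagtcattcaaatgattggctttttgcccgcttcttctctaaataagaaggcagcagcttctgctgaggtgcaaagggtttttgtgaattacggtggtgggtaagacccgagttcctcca
Fabp1: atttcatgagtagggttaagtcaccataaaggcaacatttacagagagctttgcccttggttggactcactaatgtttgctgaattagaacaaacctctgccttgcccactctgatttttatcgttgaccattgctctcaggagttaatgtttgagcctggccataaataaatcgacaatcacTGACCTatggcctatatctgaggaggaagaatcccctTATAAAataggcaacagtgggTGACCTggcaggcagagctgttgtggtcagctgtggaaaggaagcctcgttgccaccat
The Fabp7 window held an RBPJ core on the minus strand, 249 bases before the start, and a nuclear receptor half-site on the minus strand, 171 bases before it. The Fabp1 window held a TATA box 30 bases before the start and a nuclear receptor half-site on the minus strand 67 and 9 bases before it. Over 32851 promoters of the same length, the RBPJ core was present in 25.6%, the nuclear receptor half-site in 16.3% and the TATA box in 13.6%, on either strand. Such matches are common, and none is a measured site.

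Fabp5 encodes the epidermal-type protein, which is expressed in many cell types and can deliver fatty acids and retinoic acid to PPAR delta. The gene lies on the plus strand of chromosome 3 (chr3:10012548-10016607; ENSMUSG00000027533). Its normalized counts were 155, 151 and 254 in Col6a1+ CAFs and 6, 5 and 15 in Col6a1- CAFs. The groups did not overlap, and replicate 3 was the highest library of each group. The means were 187 ± 58.3 (SD, n = 3) and 8.67 ± 5.51 (SD, n = 3), a ratio of 21.5. The log2 difference was 4.38 ± 0.57 (SE), the 82nd of the fit in order of size among higher genes. Without 1 library at a time it ranged from 4.11 to 4.81.

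The counts of Fabp5 are uncertain, because reads of its transcript could be divided with processed copies. The reference transcripts held 5 copies of at least 90% identity over at least 100 bases, with identities of 93.63% to 98.29%. Their matches ended 487 to 559 bases before the end of the Fabp5 transcript of 987 bases, and the libraries were sequenced from 3′ ends. Only annotated transcripts were searched, so likeness of the genome beyond the annotated ends of the copies was not looked at. The ends of the matches therefore do not show which reads could fit the copies. Where along the transcript the reads fell is not known, and whether they were divided with the copies was not tested. Gm6166 on chromosome 9 (98.29% over 409 bases) had 588, 386 and 538 counts in Col6a1+ CAFs and 15, 24 and 23 in Col6a1- CAFs, which were higher values than those of Fabp5 in each library. Gm14328 on chromosome 18 had 204, 201 and 202 and 19, 8 and 15. The other 3 copies, Gm6100, Fabp5l2 and Gm13998, stayed at 3 counts or fewer in every library. Summed with its copies, Fabp5 had 952, 743 and 998 counts in Col6a1+ CAFs and 40, 38 and 56 in Col6a1- CAFs. The means of the sums were 898 ± 136 and 44.7 ± 9.87 (SD, n = 3), a ratio of 20.1. The difference of the sums in log2 was 4.31, so that the group difference was of the same size with the copies as for Fabp5 alone. Which of these loci gave rise to the reads was not tested.

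**Figure D3:**
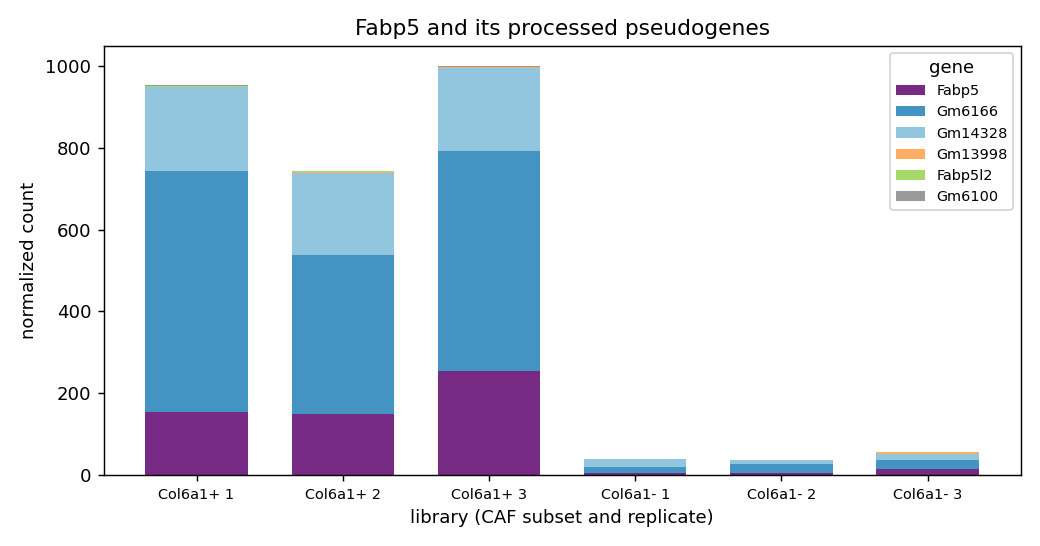
Normalized counts of Fabp5 and its 5 processed copies, stacked, in each of the 6 libraries (Col6a1+ and Col6a1- CAFs, replicates 1 to 3). The stacks reach 743 to 998 counts in the Col6a1+ libraries and 38 to 56 in the Col6a1- libraries, and Gm6166 is a larger share of each stack than Fabp5.

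Fabp4 encodes the adipocyte-type protein, a target of PPAR gamma that also circulates in blood. The gene lies on the minus strand of chromosome 3 (chr3:10204088-10208576; ENSMUSG00000062515). Its normalized counts were 203, 64 and 169 in Col6a1+ CAFs and 90, 68 and 74 in Col6a1- CAFs. Replicate 2 of the Col6a1+ CAFs was the lowest of the 6 libraries, and the groups overlapped. The means were 145 ± 72.5 and 77.3 ± 11.4 (SD, n = 3), and the log2 difference was 0.75 ± 0.47 (SE). Without 1 library at a time the difference ranged from 0.43 to 1.26. The coefficient of variation was 49.9% in Col6a1+ CAFs and 14.7% in Col6a1- CAFs. Fabp7 varied by 58.3% in the Col6a1+ group, and both genes were highest in replicate 1 and lowest in replicate 2.

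Adipocytes and capillary endothelium are known sources of Fabp4. The 9 adipocyte markers summed to 108 to 217 in Col6a1+ CAFs and 118 to 306 in Col6a1- CAFs. Adipoq, Lep and Cfd were at 0 in all 6 libraries, while Lipe, a lipase, stood at 50, 61 and 35 against 23, 84 and 53 and Cebpa, a transcription factor of adipocytes and other cells, at 41, 148 and 68 against 27, 144 and 78. The 10 endothelial markers summed to 1170 to 1560 in Col6a1+ CAFs and 363 to 641 in Col6a1- CAFs, but 8 of the 10 had a lower value in the fit (median log2 difference -1.03), and without Esam the sums were 342, 199 and 435 against 309, 548 and 506. Among them Esam (943, 971 and 1125 against 54, 93 and 38) and Tie1 passed the test as higher, whereas Pecam1, which encodes the CD31 of the sort, stood at 0, 21 and 27 against 13, 64 and 44, and Cdh5 at 10, 4 and 9 against 39, 24 and 24. With the replicate block 0 of the 10 passed (0.0612 for Esam and 0.144 for Tie1), Esam missed the threshold also without Col6a1- replicate 1 (adjusted p = 0.0547), and Tie1 did so without any 1 library. The part of other cells in the level of Fabp4 was not tested.

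Fabp4 and Fabp5 share a stretch of chromosome 3 with 3 further family genes, in the order Fabp5, Pmp2, Fabp9, Fabp4 and Fabp12, over 288.6 kb. Pmp2, a myelin protein, and Fabp9 and Fabp12, which are known from testis and eye, had no count in any of the 6 libraries. Fabp4 and Fabp9 are 6804 bases apart, and Fabp5 lies 163243 bases from its nearest neighbor of the cluster, Pmp2. The cluster thus held 1 gene with non-overlapping groups, 1 with overlapping groups and 3 without counts.

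Fabp1, Fabp2 and Fabp6 are the members of the gut epithelium. Fabp1 (chr6:71199827-71205023; ENSMUSG00000054422) is carried by enterocytes and hepatocytes, and it was at 0 in all 6 libraries. Fabp2 (chr3:122895072-122899506; ENSMUSG00000023057), which enterocytes use in dietary fat uptake, stood at 0, 0 and 3 in Col6a1+ CAFs and at 2, 8 and 3 in Col6a1- CAFs. It lies wholly within an antisense gene, 4933405D12Rik, which had 14, 1 and 0 counts and 0, 4 and 0, and without a stated strand of counting reads of the pair cannot be told apart. Fabp6 (chr11:43596049-43601540; ENSMUSG00000020405), which carries bile acids through ileal enterocytes, stood at 1, 0 and 3 and at 4, 5 and 0. The groups overlapped for both Fabp2 and Fabp6, with log2 differences of -1.58 ± 0.91 and -0.64 ± 0.95 (SE). All of these counts were low, at 8 or fewer in each library.

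Epithelial markers were read in the same libraries. Of the 12 epithelial markers, 8 passed the test as lower in Col6a1+ CAFs and 0 as higher, with a median log2 difference of -2.12 against -0.27 over all genes in the fit. Krt18, a simple-epithelium keratin, had a log2 difference of -3.24 ± 0.32 (SE; limma, adjusted p = 8.62e-04). The intercellular junction genes Cldn3 (-2.63), Cdh1 (-2.25) and Cldn7 (-2.18) were also lower. Cldn7 missed the threshold without any 1 library (limma, adjusted p = 0.0778 to 0.244). With the replicate block, 0 of the 12 passed, as 0 did without Col6a1- replicate 1, and 9 passed as lower with the block among genes of a mean of at least 10 counts. In the Col6a1- libraries the markers ranged widely, from Cdh1 at 10493, 15452 and 11963 to Slc26a3 at 7, 59 and 38. Fabp1 was at 0 in those libraries, and nothing on epithelial RNA is read from it. The part of epithelial RNA in the members' values was not tested.

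Fabp3 (chr4:130308595-130315463; ENSMUSG00000028773), the carrier of heart and skeletal muscle, stood at 0, 2 and 0 in Col6a1+ CAFs and at 4, 1 and 1 in Col6a1- CAFs. The groups overlapped, and the log2 difference was -0.91 ± 0.74 (SE). Its 3′ end shares 81 bases with Zcchc17 on the opposite strand, which had 61, 82 and 85 counts and 14, 54 and 48. Fabp3-ps1, a processed copy of 99.25% identity over 402 bases, had 3 counts or fewer in each library.

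The shares of the members in a library differed between the groups. The 7 genes summed to 726, 305 and 707 counts in Col6a1+ CAFs and to 106, 87 and 93 in Col6a1- CAFs. Fabp4 made up 84.9%, 78.2% and 79.6% of the sum in the Col6a1- libraries, and 27.96%, 20.98% and 23.9% in the Col6a1+ libraries. In the latter, Fabp7 made up 50.5%, 28.9% and 39.3% and Fabp5 21.3%, 49.5% and 35.9%. Fabp7 had more counts than Fabp5 in replicates 1 and 3 and fewer in replicate 2. These are shares of counts without correction for transcript length, and for Fabp5 they leave out the copies.

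For each of the 3 members with a mean of at least 10 counts, the 3 genes with the most similar profile were listed. Likeness was the root mean square difference of the centered log2 values over the 6 libraries, against 13514 other genes with a mean of at least 10. Since the likeness was computed on the same libraries, it is a description. The nearest to Fabp7 were Heyl (0.371), 1810011H11Rik (0.415) and Olfr78 (0.454), where the median over all compared genes was 4.02. Heyl, a transcriptional repressor induced by Notch, stood at 534, 229 and 325 in Col6a1+ CAFs and at 1, 1 and 1 in Col6a1- CAFs. Olfr78, an olfactory receptor also known outside the nose, stood at 480, 124 and 205 and at 1, 0 and 0. Both had replicate 1 highest and replicate 2 lowest, as Fabp7 did, an order that their choice by likeness favors. The likeness also rests on the group difference, 7.42 for Heyl and 7.52 for Olfr78 beside 7.71 for Fabp7 (log2).

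The nearest to Fabp5 were Cck (0.193), Nes (0.340) and AI838599 (0.359), with a median of 2.39 over all compared genes. Nes, the intermediate filament nestin of progenitor and perivascular cells, stood at 160, 155 and 258 in Col6a1+ CAFs and at 5, 3 and 8 in Col6a1- CAFs. Cck, the gut hormone cholecystokinin, stood at 46, 47 and 61 and at 1, 1 and 5. The nearest to Fabp4 were Tmem252 (0.113), Zfp280c (0.184) and Gm21988 (0.188), with a median of 0.952. Tmem252 stood at 55, 14 and 40 in Col6a1+ CAFs and at 23, 15 and 20 in Col6a1- CAFs, and thus overlapped between groups as Fabp4 did. Between the members the distance was 1.82 for Fabp5 and Fabp7, 1.93 for Fabp4 and Fabp5, and 3.48 for Fabp4 and Fabp7. In order of likeness to Fabp7, Fabp5 was number 75 of the 13514 genes, and in order of likeness to Fabp5, Fabp7 was number 1684.

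**Figure D4:**
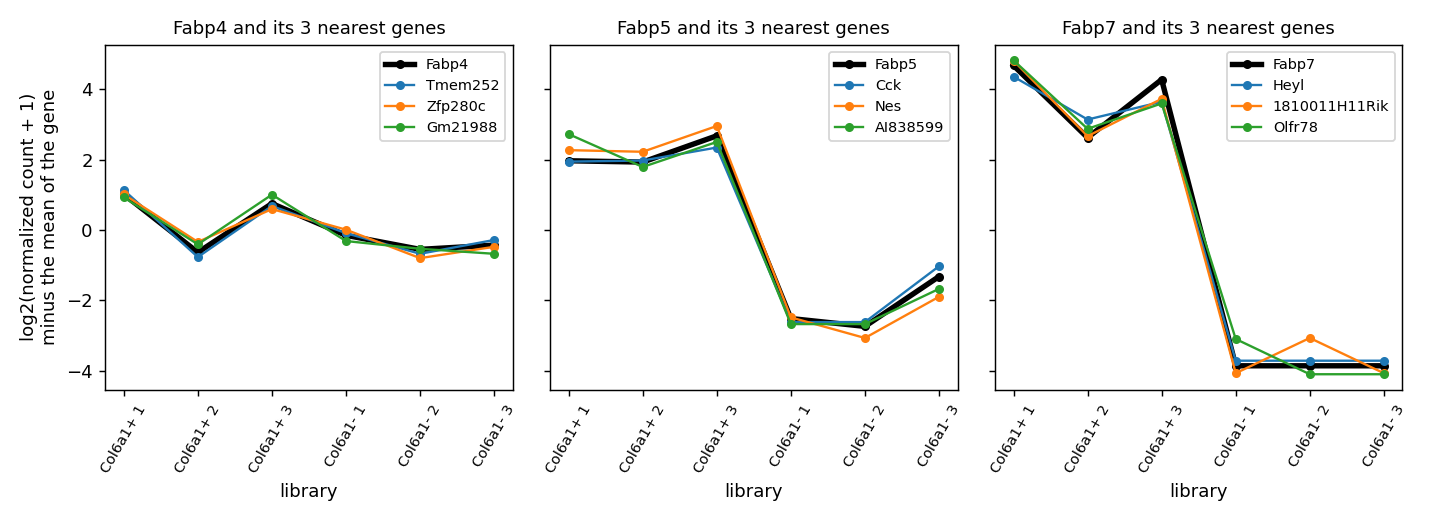
Centered log2(normalized count + 1) in the 6 libraries for Fabp4, Fabp5 and Fabp7, each with its 3 nearest genes; each line is 1 gene and joins the libraries only as a guide to the eye. The values of Fabp7, of Fabp5 and of the genes nearest to each are higher in every Col6a1+ than in every Col6a1- library, and those of Fabp4 and its nearest genes vary mainly within the Col6a1+ group.

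Other genes of lipid handling were read from lists, each tested with limma and adjusted over the 26402 genes. Of 15 genes of fatty acid uptake and activation, 1 passed as lower and 0 as higher, with a median log2 difference of -0.33. The gene that passed was Acsl3, an acyl-CoA synthetase that activates fatty acids for lipid droplets, at 104, 131 and 89 in Col6a1+ CAFs and 562, 481 and 694 in Col6a1- CAFs. Its groups did not overlap, and the log2 difference was -2.41 ± 0.31 (SE; adjusted p = 0.00232, and 0.0616 with the replicate block). It missed the threshold without Col6a1- replicate 1 or 3 (adjusted p = 0.0717 and 0.0576). Cd36, a fatty acid translocase, stood at 24, 1 and 15 against 0, 2 and 1. Lpl, the lipase that releases fatty acids from lipoproteins, stood at 714, 1533 and 828 against 290, 717 and 304, with overlapping groups. Acsl4 stood at 725, 694 and 446 against 426, 230 and 278. In the other direction, Dbi stood at 877, 944 and 843 against 1459, 1633 and 1482. Acsl1 stood at 72, 28 and 21 against 87, 618 and 104. By limma, 2 of the 15 genes had an unadjusted p under 0.05 as higher and 3 as lower. In the fit 7 had a higher and 8 a lower value in Col6a1+ CAFs.

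Among the 8 intracellular lipid-binding relatives, 5 had counts and 0 passed in either direction by limma, while 1 had an unadjusted p under 0.05 and 1 passed with limma-voom, both as lower. Rbp7, a retinol carrier, stood at 0, 0 and 0 in Col6a1+ CAFs and at 2, 8 and 10 in Col6a1- CAFs. For the 12 genes by which enterocytes store and export lipid, 0 of 10 with counts passed by limma or limma-voom, and 3 had an unadjusted p under 0.05 as lower. Plin2, the coat protein of lipid droplets, stood at 2271, 366 and 463 and at 361, 457 and 428, so that the Col6a1+ replicate 1 alone lay above the others.

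Of 8 partners of Fabp6 in bile acid transport and sensing, 7 had counts and 1 passed, as lower. It was Abcc2, an export pump for conjugated organic anions, at 0, 4 and 3 in Col6a1+ CAFs and 170, 38 and 72 in Col6a1- CAFs, with a log2 difference of -4.86 ± 0.94 (SE; adjusted p = 0.0160, and 0.123 with the replicate block). It passed without Col6a1+ replicate 1 or 2, and not without any of the other 4 libraries (adjusted p = 0.0644 to 0.153). Slc10a2, the ileal bile acid importer, stood at 21, 11 and 11 against 37, 33 and 49.

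Of 11 transcription factors known to act on Fabp genes, 2 passed as lower and 0 as higher. Among the 2, Cdx1, an intestinal homeobox factor, stood at 55, 58 and 49 against 303, 407 and 203, with a log2 difference of -2.42 ± 0.37 (SE; adjusted p = 0.00582, and 0.0612 with the replicate block), and it missed the threshold without Col6a1- replicate 1 or 2 (adjusted p = 0.0926 and 0.0667). Pparg, which drives Fabp4 in adipocytes, stood at 113, 30 and 48 against 69, 48 and 28, and Ppard, the partner of Fabp5, at 386, 131 and 197 against 122, 201 and 113. Both overlapped between the groups, and in the Col6a1+ CAFs both were highest in replicate 1 and lowest in replicate 2, as were Fabp4 and Fabp7.

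Marker lists of other cells that carry Fabp genes were read beside these values. Of 9 glial markers, cells in which Fabp7 is known, 1 passed as higher and 0 as lower, and the summed level was 263 to 768 in Col6a1+ CAFs and 173 to 263 in Col6a1- CAFs. The gene was Ngfr, a neurotrophin receptor of glia and of some fibroblasts, at 675, 179 and 383 against 111, 19 and 24 (log2 difference 3.23 ± 0.68, SE; adjusted p = 0.0237, and 0.0612 with the replicate block). It missed the threshold without any 1 of the 6 libraries (adjusted p = 0.0606 to 0.216). In the fit, 6 of the 9 markers had a higher and 3 a lower value in Col6a1+ CAFs, with a median log2 difference of 0.86. Sox10 stood at 34, 4 and 1 against 0, 0 and 0, S100b at 0, 30 and 13 against 0, 4 and 10, and Gfap at 2 counts or fewer. Among the 3 lower ones, the myelin gene Mbp stood at 0, 7 and 19 against 79, 84 and 74, and Erbb3 at 20, 13 and 7 against 30, 41 and 55. The part of glial RNA in the level of Fabp7 was not tested.

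Of 9 adipocyte markers, 6 had counts, and 1 passed, as lower: Pck1, which encodes a gluconeogenic enzyme of liver, kidney and gut as well, at 0, 3 and 0 against 66, 63 and 10 (adjusted p = 0.0462, and 0.107 with the replicate block), and it missed the threshold without any 1 library (0.0774 to 0.214). For the 10 immune markers, 0 passed by limma or limma-voom, 4 had an unadjusted p under 0.05 as lower, and the sums were 125 to 310 in Col6a1+ CAFs and 247 to 380 in Col6a1- CAFs. In the fit 8 of the 10 had a lower and 2 a higher value in Col6a1+ CAFs (median log2 difference -2.01), with Cd14 at 92, 77 and 225 against 120, 175 and 133, Cd52 at 0, 10 and 27 against 38, 71 and 25, Lyz2 at 0, 9 and 16 against 22, 24 and 31, and the macrophage marker Adgre1 at 1 count or fewer. For the erythroid and mesothelial lists, 0 of 5 and 0 of 4 markers with counts passed by limma or limma-voom, and 0 and 1 had an unadjusted p under 0.05. Of the 9 fibroblast markers, 6 passed as higher in Col6a1+ CAFs and 0 as lower, among them Pdgfrb (4.28), Thy1 (3.75), Col1a2 (2.5) and Col1a1 (2.21, all log2 differences). With the replicate block 0 of the 9 passed, 7 passed with the block among genes of a mean of at least 10 counts, and 1 passed without Col6a1- replicate 1.

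**Figure D5:**
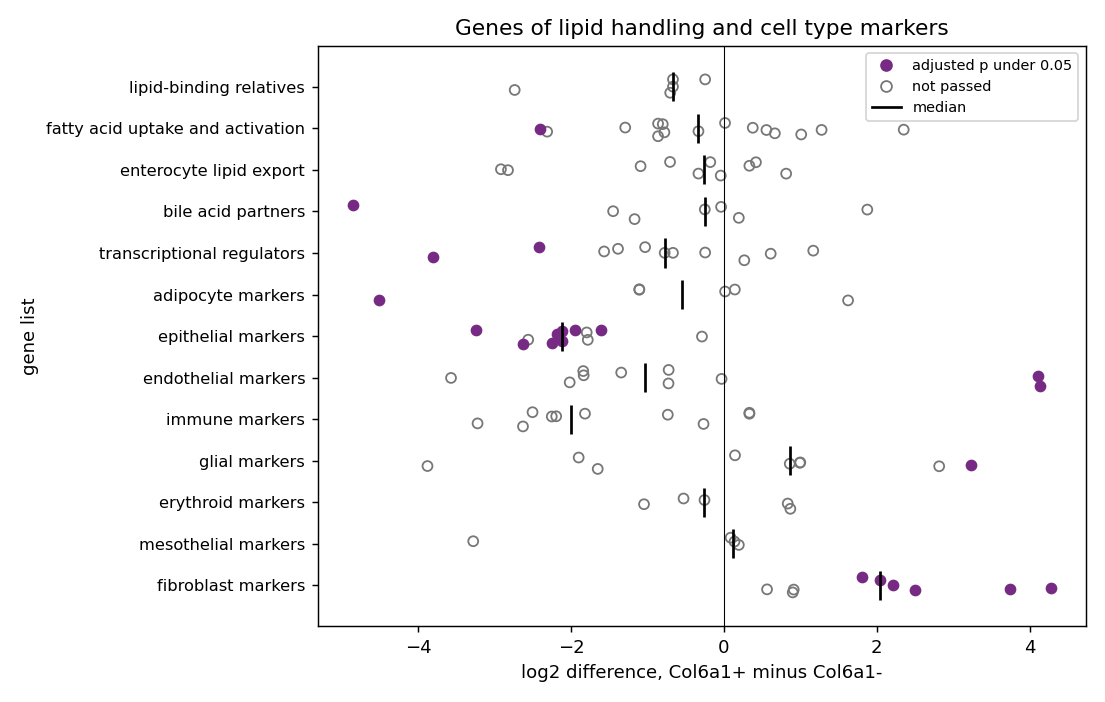
Difference between the groups (log2, Col6a1+ minus Col6a1-) for the genes with counts of 13 lists of lipid handling and cell type markers; each point is 1 gene, filled points passed an adjusted p of 0.05 (limma), and bars are medians. All epithelial markers lie below 0 (median -2.12) and all fibroblast markers above 0 (median 2.04). The medians of fatty acid uptake and activation (-0.33), enterocyte lipid export (-0.26) and bile acid partners (-0.25) lie near that of all genes, -0.27. Those of lipid-binding relatives (-0.67) and transcriptional regulators (-0.78) lie lower.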

How the data were processed

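RNA of 6 sorted libraries was sequenced from the 3′ end on the Ion Proton system. The authors mapped the reads to mm10 with TopHat2 and the rest with Bowtie2, and counted and normalized them with DESeq in the metaseqR package. The strand setting of the counting is not given in the sources used here. The deposited values are log2 of the normalized count plus 1. Counts were recovered as whole numbers in 100% of values (tolerance 0.001), but they are scaled, so the depth of reads is unknown. Another 6 per-sample columns, in which the authors divided the counts by gene model length (a signal per base), the deposited fraction of G and C bases per gene, and the columns of p-values and fold changes of the comparison by the authors were not used.

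Groups and replicate numbers came from the labels. limma 3.58.1 (lmFit, eBayes with trend) in R 4.3.3 was fitted to the log2 values of all 26402 genes with a sum of at least 1 count, without a block. P-values were two-sided, adjusted over all of these genes by Benjamini-Hochberg, and genes passed under 0.05. Differences are Col6a1+ minus Col6a1- on the log2(count + 1) scale, which understates changes of low genes. Deviations of samples of the same number correlated weakly (r = 0.245, 0.125 and 0.144 over 13515 genes). Other pairs lay at -0.245 to 0.15, and the highest of these exceeded 0.125 and 0.144. These values do not settle whether the numbers pair the samples, so the fit with the replicate block is given beside the calls. In the paper both subsets were sorted from adenomas of the same reporter mice. A legend of the paper counts 3 samples in total, each a pool, whereas 6 libraries were deposited. GFP+ and Tomato+ libraries may therefore share pools. No label states that samples of the same number came from the same pool.

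The fit was tried on simulated data of 19890 genes. Of 200 genes changed 8-fold, 164 were called in the right direction, with 3 false calls. The simulated libraries were drawn independently, with the same dispersion for every gene and without the genes of lowest level. The result therefore does not speak for the calls in the real libraries, which depend on single libraries. Copies of the members were searched with BLAST 2.17.0 in the transcripts of GENCODE M21, whose coordinates match those of the table. Alternatives were equal sums, a mean of at least 10, a pseudocount of 0.1, limma-voom, the replicate block and leaving out each library. The members and gene lists were chosen with earlier results of these data known. From each list the text names up to 4 passed genes with the largest difference and a mean of at least 10 counts, or, where none passed, up to 2 with the highest mean; other genes were named after their values were seen. Some genes that this rule would name are not reported here.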

Additional observations from a re-analysis of the deposited data

How the results depend on the processing

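The log2 difference kept its sign for all 6 Fabp genes in the fit under each alternative that could give a value. With a pseudocount of 0.1 it moved to -3.58 for Fabp2, -2.63 for Fabp3 and 11.02 for Fabp7, since these have libraries at 0, and with limma-voom to 8.70 for Fabp7. Leaving out 1 library at a time gave -2.25 to -1.13 for Fabp2, -1.44 to -0.47 for Fabp3, 0.43 to 1.26 for Fabp4, 4.11 to 4.81 for Fabp5, -1.45 to -0.14 for Fabp6 and 7.30 to 8.32 for Fabp7. With the replicate block, 0 genes passed in limma in either direction, over all genes, among the members and in each of the lists (smallest adjusted p 0.0612; 1851 genes higher and 2567 lower at an unadjusted p under 0.05). With the block and a mean of at least 10 counts together, chosen after seeing the data, 981 passed as higher and 871 as lower of 13515, and 2 members as higher. In that fit 9 epithelial markers passed as lower, 7 fibroblast, 2 endothelial and 1 glial marker as higher, and 2 genes of fatty acid uptake and activation as higher and 1 as lower, with 1 regulator, 1 bile acid partner and 1 adipocyte marker as lower. Over all genes, 703 higher and 517 lower in the fit as described became 561 and 336 with a pseudocount of 0.1, 771 and 798 with limma-voom, 711 and 631 with equal sums and 815 and 608 with a mean of at least 10. With a pseudocount of 0.1, the genes that passed were 0 adipocyte markers and 0 bile acid partners as lower, 1 endothelial marker as higher, 5 epithelial markers as lower and 1 regulator as lower. A single glial marker passed as lower with equal sums, a mean of at least 10, limma-voom and the block with that mean, and 1 lipid-binding relative as lower with limma-voom.

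Without 1 library at a time, 11 to 453 genes passed as higher and 1 to 442 as lower, both fewest without Col6a1- replicate 1. Members passing as higher were 0 to 2, epithelial markers as lower 0 to 5, fibroblast markers as higher 1 to 4, endothelial markers as higher 0 to 1, regulators as lower 0 to 2, fatty acid uptake genes, bile acid partners and glial markers as lower each 0 to 1, and glial markers as higher and adipocyte markers as lower 0 to 0. When genes were chosen over all 6 libraries instead (added after seeing the data), these became 0 to 98 and 0 to 166 over all genes (63 and 125 without Col6a1- replicate 3), 0 to 1 for the members, for fibroblast and endothelial markers as higher, and for regulators and fatty acid uptake genes as lower, and 0 to 0 for epithelial, adipocyte and glial markers and bile acid partners. The cause of these losses was not tested. The counts of Fabp2, Fabp3 and Fabp6, at 8 or fewer per library, limit the precision of their differences.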

Other observations

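Several genes of lipid handling were highest of the 6 libraries in Col6a1+ replicate 1, the library with the fewest genes detected (14530). They were picked after their values were seen and are given without a test. Plin2 stood there at 2271, where the other 5 libraries lay at 361 to 463. Plin1 stood at 43 and Cd36 at 24, where the Col6a1+ replicates 2 and 3 were at 1 and 4 for Plin1 and at 1 and 15 for Cd36. Fabp4 (203), Fabp7 (367), Pparg (113) and Ppard (386) also had their highest value in that library, whereas Fabp5 (155) did not. Others of the lists did not either, such as Lpl, highest in Col6a1+ replicate 2 (1533), and Dgat1, highest in Col6a1+ replicate 3 (610). How many of all genes were highest in Col6a1+ replicate 1 was not counted.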
